A study of Mus musculus with 18 samples.

Results

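The NF-kappaB subunits and the feedback inhibitors that restrain them were followed through the first 72 h of acute myocardial infarction (AMI) in the mouse heart. The set holds 10 genes chosen by symbol, 5 that encode the subunits (Nfkb1, Rela, Nfkb2, Relb and Rel) and 5 that encode inhibitors (Nfkbia, Nfkbie, Nfkbiz, Bcl3 and Tnfaip3), out of 24419 gene symbols in the deposited table. All 10 are listed and all 10 passed the filter on low values. RNA came from the left ventricle of 18 C57BL/6 mice, which the methods give as male and 8 weeks old. For the AMI mice the paper describes this tissue as infarcted myocardium. AMI was produced under sodium pentobarbital by tying the proximal left anterior descending coronary artery, and 3 mice per time point were taken 10 min or 1, 6, 24 or 72 h afterwards. A further 3 mice are the control group of the labels, named sham here after the paper's text; what was done to them is not given in the sources used here. No transgene or drug other than the anaesthetic is named for any group. Values are FPKM, fragments per kilobase of transcript scaled to the number of mapped fragments, estimated by the authors from polyA RNA of whole tissue. Each mean below has n = 3 mice and its SD, and mice within a group are numbered as in the labels.

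NF-kappaB is a family of transcription factors that act as dimers. Nfkb1 and Nfkb2 encode long precursors whose C-terminal repeats hold the dimers in the cytoplasm and which are shortened to DNA-binding subunits, while Rela, Relb and Rel encode the subunits that carry a transactivation domain. In resting cells IkappaB proteins mask the dimers. Receptors for TNF, interleukin-1 and microbial or damage-derived ligands lead to phosphorylation and loss of IkappaB, so that the dimers enter the nucleus (the canonical route), and a slower route through lymphotoxin-beta and related receptors processes the Nfkb2 precursor and releases Relb (the non-canonical route). Several inhibitors are themselves target genes, which makes their mRNA a common readout of the pathway. In an infarct, both the resident cells of the heart and the incoming leukocytes use it.

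The sequence just upstream of the start site is shown for 5 members, 4 that hold at least 1 match to the 10-base kappaB consensus and Bcl3, which holds none there although its mRNA rose 7.87-fold at 6 h. The bases are those of RefSeq on GRCm38.p6 (mm10), 250 bases that end just before the annotated start, written 5′ to 3′ on the strand of the gene. Capitals mark every match to the consensus on either strand, and for Tnfaip3 and Nfkb2, which have several RefSeq starts, the outermost RefSeq promoter is given.
Nfkbia, chr12:55492648-55492897, minus strand: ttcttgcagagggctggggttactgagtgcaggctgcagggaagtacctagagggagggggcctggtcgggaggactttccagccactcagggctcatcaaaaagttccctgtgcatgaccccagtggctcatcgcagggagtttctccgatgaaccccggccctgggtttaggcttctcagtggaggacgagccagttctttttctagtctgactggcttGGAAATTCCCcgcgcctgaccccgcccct
Tnfaip3, chr10:19015411-19015660, minus strand: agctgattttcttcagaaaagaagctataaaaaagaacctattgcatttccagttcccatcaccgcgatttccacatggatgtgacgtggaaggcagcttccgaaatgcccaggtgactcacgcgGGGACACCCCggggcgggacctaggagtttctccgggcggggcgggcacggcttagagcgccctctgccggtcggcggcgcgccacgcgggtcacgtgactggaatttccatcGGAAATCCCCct
Nfkb2, chr19:46304487-46304736, plus strand: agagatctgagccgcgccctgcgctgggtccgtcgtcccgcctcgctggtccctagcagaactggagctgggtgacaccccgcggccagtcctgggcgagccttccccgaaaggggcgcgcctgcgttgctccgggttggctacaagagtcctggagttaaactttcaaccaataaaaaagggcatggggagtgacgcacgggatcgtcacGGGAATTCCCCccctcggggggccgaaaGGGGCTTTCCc
Nfkbie, chr17:45555450-45555699, plus strand: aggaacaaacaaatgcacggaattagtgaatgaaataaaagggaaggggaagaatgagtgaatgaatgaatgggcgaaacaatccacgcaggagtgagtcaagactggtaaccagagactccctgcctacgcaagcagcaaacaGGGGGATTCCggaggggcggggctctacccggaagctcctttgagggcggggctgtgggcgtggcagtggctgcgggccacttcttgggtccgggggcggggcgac
Bcl3, chr7:19822756-19823005, minus strand: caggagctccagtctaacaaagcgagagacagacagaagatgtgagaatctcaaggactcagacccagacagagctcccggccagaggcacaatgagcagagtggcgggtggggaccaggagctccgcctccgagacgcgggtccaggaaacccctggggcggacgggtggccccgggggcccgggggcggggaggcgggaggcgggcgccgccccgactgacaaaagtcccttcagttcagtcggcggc
Of the 10 members, 7 were found in the RefSeq promoter table with 10 promoters between them, and 7 of these 10 promoters held a match. Nfkb1, Relb and Nfkbiz were not matched. The genes with a match were Nfkbia, Tnfaip3, Nfkb2, Nfkbie and Rel, and Rela and Bcl3 had none in this window, which says only that these letters are not there. The same search found a match in 7.3% of all 32851 promoters and in 11 of the 29 promoters found for a list of target genes described further on. Mean GC content was 63.9% in the members' promoters and 53.2% in all promoters. Measured from the RefSeq start, the nearest match lay 2 to 11 bases upstream in Nfkb2, 3 to 12 bases in Tnfaip3 and 20 to 29 bases in Nfkbia. The match of Nfkbie lay 97 to 106 bases upstream. GENCODE places some starts elsewhere. The printed Nfkb2 window lies inside the GENCODE span of that gene, and nearly all of the Tnfaip3 window does.

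In GENCODE M21 on mm10, Nfkb2 spans bases 46304320 to 46312385 of chromosome 19 on the plus strand and shares 299 bases at its 3′ end with Psd on the opposite strand, which had 0.173 to 0.578 FPKM in the 18 mice. It also shares 1292 bases with the non-coding gene AC114539.1 on the opposite strand, and Nfkb1 shares 3897 with Gm43430 on its own strand. Bcl3 (chromosome 7, 19808462 to 19822770, minus strand) has the antisense genes Gm16174 and Gm16175 within its span, and Relb lies 179024 bases away on the same chromosome. Whether strand was used in quantification is not given in the sources used here, so reads of such pairs cannot be told apart. Nfkbia is the shortest member, with 1610 exonic bases on the minus strand of chromosome 12, and Nfkb1 the longest, with 12061 on that of chromosome 3.

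The samples held heart RNA, with all 8 cardiomyocyte markers (Myh6, Tnnt2 and others) detected in every group and a summed level of 55765 to 59296 FPKM in the sham mice against 20429 to 25375 at 72 h. The sum of 7 leukocyte markers was 20.8 to 24.9 FPKM in sham mice, 23.2 to 30.3 at 10 min, 24.8 to 30.5 at 1 h, 35.9 to 115.6 at 6 h, 134.7 to 326.5 at 24 h and 395.6 to 427.8 at 72 h. Neutrophil markers (7 genes, S100a8 and S100a9 the most abundant, with Camp at 0 in all mice at 10 min and 1 h) summed to 2.32 to 5.004 FPKM in sham mice, 5.49 to 24.0 at 10 min, 16.6 to 30.1 at 1 h, 117.3 to 1002 at 6 h, 43.0 to 968.0 at 24 h and 51.8 to 62.2 at 72 h. Monocyte and macrophage markers (10 genes) rose mainly at the end, from 367.7 to 432.5 FPKM in sham mice to 5129 to 6778 at 72 h. Fibroblast markers (6 genes) summed to 249.6 to 279.4 FPKM in sham mice and 180.5 to 247.5 at 6 h. Their sums were 294.1 to 401.3 at 24 h and 3158 to 4247 at 72 h. Endothelial markers (6 genes) summed to 515.0 to 568.45 FPKM in sham mice and 447.8 to 556.6 at 72 h. By limma, Kdr, Tie1 and Emcn were lower than sham at 72 h and none of the 6 was higher, where 24.2% of all genes fell. T cell and B cell sums stayed at or below 5.37 and 7.13 FPKM. In RNA of whole tissue a change in the number of cells of a type and a change of RNA per cell cannot be told apart, and the part of these cell types in the members' levels was not tested. Depth relative to the first sham mouse, read from the lowest values since the table holds no counts, ran from 0.812 to 1.32, with group medians of 0.859 at 10 min and 1.301 at 72 h.

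**Figure D1:**
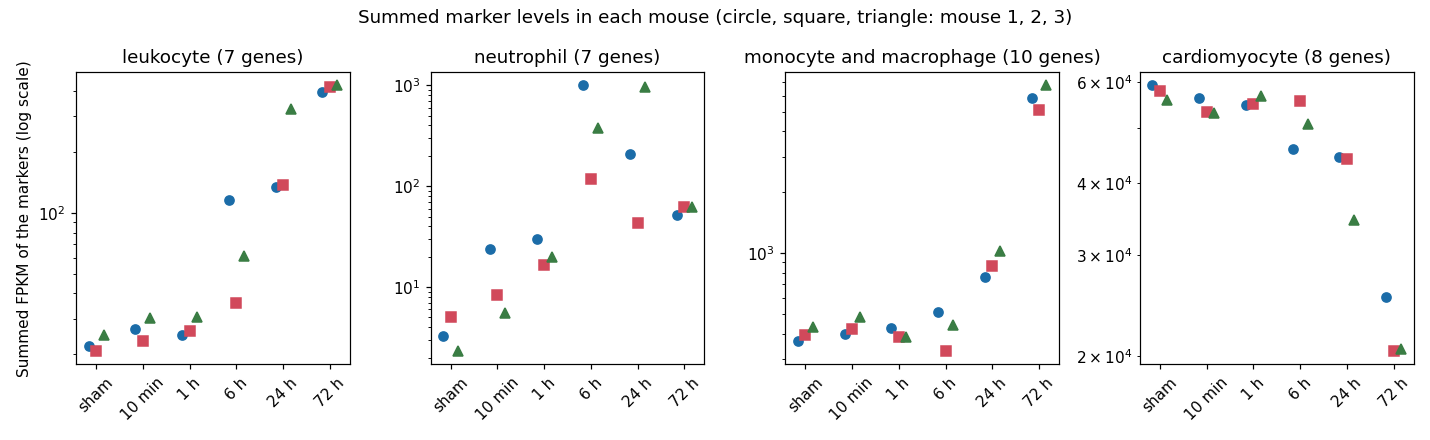
Summed FPKM of 4 sets of cell type markers (log axis) in each of the 18 mice by group. Mouse 1 at 6 h and mouse 3 at 24 h lie highest in their groups for neutrophil markers, at 1002 and 968.0 FPKM, and the cardiomyocyte sum falls to 20429 to 25375 at 72 h.

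In sham hearts the members spanned a wide range of levels per length. Nfkb1 was the most abundant at 36.8 ± 3.47 FPKM, followed by Nfkbia at 24.2 ± 1.94, Rela at 14.2 ± 0.555, Nfkb2 at 12.2 ± 0.689, Relb at 5.85 ± 0.639 and Nfkbiz at 2.65 ± 0.0917. Rel (1.69 ± 0.0974), Tnfaip3 (1.54 ± 0.185), Bcl3 (1.35 ± 0.317) and Nfkbie (0.479 ± 0.121) were lowest. In that order Rel overlapped Tnfaip3 between mice and Tnfaip3 overlapped Bcl3, and the other neighbours did not overlap. At 72 h Nfkb1 was still first and Nfkb2 had moved from the fourth place to the second, while Rel had moved to the last.

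Each time point was compared with sham to ask when the pathway's own genes changed, with limma on log2(FPKM + 1) and Benjamini-Hochberg adjustment over all genes tested. At 10 min no member passed an adjusted p of 0.05 in either direction, where 0.248% of 13297 genes rose and 0.0978% fell, and 2 members had an unadjusted p under 0.05 (Rel and Nfkb2). At 1 h 3 of 10 rose (Nfkbia, Nfkbiz and Tnfaip3), against 0.669% of all genes rising and 0.0526% falling. At 6 h 6 rose (Nfkb2, Rela, Relb, Nfkbia, Nfkbiz and Bcl3), against 11.6% rising and 16.8% falling. At 24 h 5 rose (Nfkb2, Relb, Nfkbie, Nfkbiz and Bcl3), against 26.2% rising and 11.4% falling, and at 72 h 9 rose, all but Nfkbia, against 53.1% rising and 24.2% falling. No member fell at any time on the FPKM scale as deposited, and none was lower with an unadjusted p under 0.05 (limma). The median log2 fold change of the 10 members was 0.19, -0.03, 0.80, 0.89 and 1.19 at the successive times, beside 0.02, -0.02, -0.08, 0.13 and 0.29 over all genes tested. These comparisons share the 3 sham mice.

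The scale matters at the late times, because the median of all genes was itself shifted. Dividing each mouse by its median-of-ratios factor brought the shift at 72 h from 0.29 to 0.03 and changed the split of all genes from 7081 rising and 3226 falling to 5208 and 4792, and quantile normalization gave 4278 and 5794. At 24 h the split went from 3496 and 1516 to 2460 and 2426 or 2118 and 2736, and at 6 h from 1543 and 2233 to 1922 and 1586 with median-of-ratios scaling or 1650 and 2147 with quantiles made equal. Among the steps between neighbouring times described further on, the split of 1 h to 6 h went from 1241 and 1490 to 1523 and 1169 or 1314 and 1477, that of 6 h to 24 h from 1664 and 258 to 403 and 368 or 371 and 277, and that of 24 h to 72 h from 3963 and 1799 to 3159 and 2693 or 2775 and 3424. With the median-of-ratios factors the same 9 members were higher at 72 h, with log2 fold changes from 0.31 for Rela to 2.08 for Bcl3, and with quantile normalization 8 were, Rel no longer passing (0.23, adjusted p = 0.0900). Nfkbia then passed the test as lower at 72 h, by -0.27 under both scalings (adjusted p = 0.0125 and 0.0131, limma), whereas on the deposited scale its difference was 0.04.

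**Figure D2:**
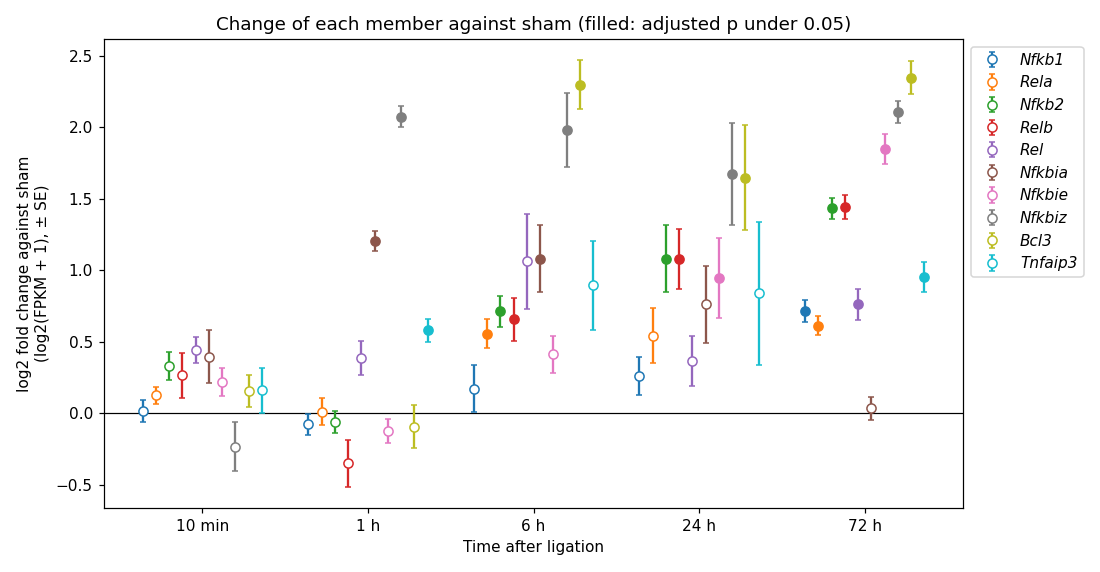
Log2 fold change of each member against sham on the log2(FPKM + 1) scale, with its SE (n = 3 mice in each group), at 5 times after ligation. Filled symbols passed an adjusted p of 0.05, which 0 (10 min), 3 (1 h), 6 (6 h), 5 (24 h) and 9 (72 h) members did.

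Among the subunits, Nfkb2 and Relb, the pair of the non-canonical route, had the largest rises at 72 h. Nfkb2 had 12.2, 11.6 and 12.9 FPKM in the sham mice, 18.2, 14.8 and 14.2 (10 min), 11.1, 11.2 and 12.8 (1 h), 23.8, 19.5 and 19.0 (6 h), 19.7, 24.5 and 40.1 (24 h) and 32.6, 35.6 and 35.8 (72 h). All mice from 6 h onward lay above all sham mice, and those at 1 h overlapped them. The 10 min mice were also all above sham, but with an adjusted p of 0.205 (limma). Nfkb2 rose by 0.71 on the log2 scale at 6 h (SE 0.11, adjusted p = 0.00417), by 1.08 at 24 h (SE 0.23, adjusted p = 0.0149) and by 1.43 at 72 h (SE 0.071, adjusted p = 3.7e-07), the last being 2.84-fold in mean FPKM.

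Relb, which pairs with the Nfkb2 product, followed at a lower level. Its values were 6.57, 5.38 and 5.59 FPKM in sham mice, 9.45, 5.76 and 6.85 (10 min), 3.43, 4.03 and 5.91 (1 h), 12.0, 7.94 and 9.80 (6 h), 10.9, 11.4 and 19.2 (24 h) and 17.3, 17.5 and 17.8 (72 h). Its lowest group was 1 h, where it overlapped sham (log2 fold change -0.35, SE 0.16, adjusted p = 0.434), and the 72 h mice differed by only 1.026-fold from lowest to highest. Relb rose by 0.66 at 6 h (SE 0.15, adjusted p = 0.0186), 1.08 at 24 h (SE 0.21, adjusted p = 0.0113) and 1.44 at 72 h (SE 0.082, adjusted p = 7.92e-07). Without sham mouse 2 or sham mouse 3 the 6 h difference no longer passed (adjusted p = 0.0706 and 0.0700).

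Rela, the main transactivating subunit of the canonical dimer, rose less. It had 14.1, 13.6 and 14.7 FPKM in sham mice, 15.9, 15.2 and 15.5 (10 min), 12.7, 13.95 and 16.4 (1 h), 24.4, 20.6 and 19.3 (6 h), 15.7, 21.2 and 28.2 (24 h) and 22.4, 23.1 and 21.3 (72 h). All mice at 6 h, 24 h and 72 h lay above all sham mice, with a spread of 1.268-fold, 1.791-fold and 1.083-fold within these groups. The rise was 0.56 at 6 h (SE 0.10, adjusted p = 0.00908) and 0.61 at 72 h (SE 0.066, adjusted p = 3.55e-05), and 0.54 at 24 h did not pass (SE 0.19, adjusted p = 0.0598).

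Nfkb1, whose product supplies the partner of Rela, passed the test at 72 h and at no earlier time. Sham mice had 34.6, 35.0 and 40.8 FPKM, the 6 h mice 53.6, 33.9 and 39.1, the 24 h mice 38.4, 42.5 and 52.7 and the 72 h mice 58.5, 62.7 and 61.4, while the 10 min and 1 h mice stayed between 33.9 and 38.6. The 72 h mice stood clear of all sham mice, by 0.72 (SE 0.078, adjusted p = 4.08e-05), and at 6 h and 24 h the groups overlapped (0.17 and 0.26, adjusted p = 0.448 and 0.153). Its mean at 72 h was 1.66 times that of sham.

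Rel, the subunit best known from lymphoid and myeloid cells, was low and scattered. The sham mice had 1.81, 1.64 and 1.64 FPKM, those at 10 min 2.31, 2.79 and 2.90, those at 1 h 3.15, 2.014 and 2.48, those at 6 h 8.63, 2.37 and 4.48, those at 24 h 2.49, 1.72 and 3.39 and those at 72 h 3.10, 4.31 and 3.38. All mice at 10 min, 1 h, 6 h and 72 h lay above all sham mice. Only 72 h passed the test (0.76, SE 0.11, adjusted p = 0.000219). The largest mean was at 6 h, 3.05 times sham, with a difference of 1.06 (SE 0.33) whose adjusted p of 0.0504 went past the threshold in 7 of 14 alternative settings (0.00722 to 0.129). The 10 min value was 0.44 (SE 0.090, adjusted p = 0.0966), the lowest adjusted p of any member at that time.

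**Figure D3:**
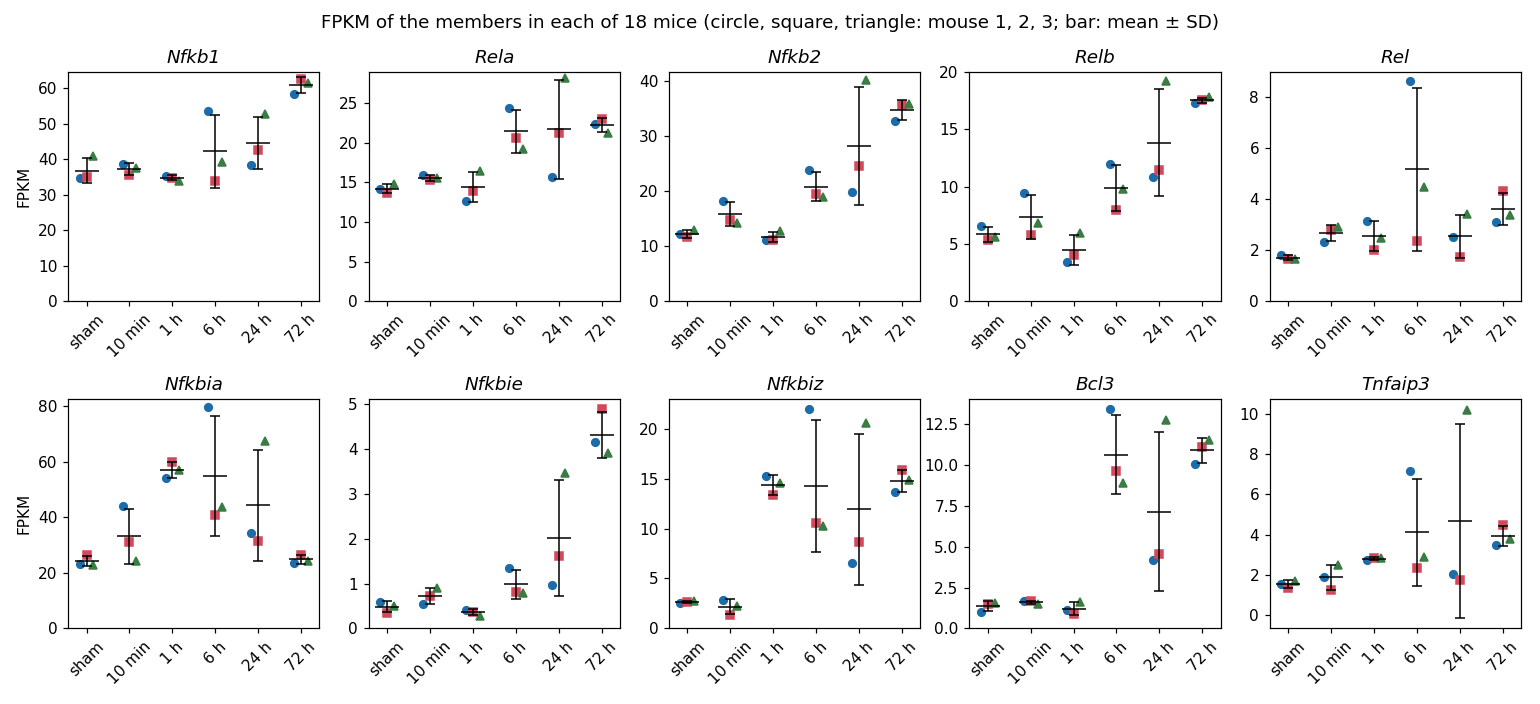
FPKM of the 10 members in each of the 18 mice by group, with the mean and SD of each group (n = 3), on an axis of its own for each gene. Nfkbia peaks at 1 h to 6 h and is back at 23.7 to 26.6 FPKM at 72 h, while Nfkb2, Relb and Nfkbie are highest at 72 h, and mouse 1 at 6 h and mouse 3 at 24 h are the top values of their groups in all 10 panels.

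Of the inhibitors, Nfkbia, which encodes IkappaBalpha, the protein that strips NF-kappaB from DNA and returns it to the cytoplasm, rose early and overlapped the sham mice again at 72 h on the deposited scale, where both other scalings placed it lower. It had 23.2, 26.5 and 23.0 FPKM in sham mice, 43.98, 31.0 and 24.4 (10 min), 54.2, 59.8 and 57.0 (1 h), 79.7, 40.9 and 43.8 (6 h), 34.2, 31.4 and 67.4 (24 h) and 23.7, 26.6 and 24.3 (72 h). At 10 min 1 mouse lay within the sham range and the other two above it, and at 1 h, 6 h and 24 h all mice lay above all sham mice. The log2 difference was 0.40 at 10 min (SE 0.19, adjusted p = 0.374), 1.20 at 1 h (SE 0.070, adjusted p = 0.000154), 1.08 at 6 h (SE 0.24, adjusted p = 0.0158), 0.76 at 24 h (SE 0.27, adjusted p = 0.0616) and 0.04 at 72 h (SE 0.079, adjusted p = 0.692). The 6 h call was lost without sham mouse 1 or 3 (adjusted p = 0.0593 and 0.0597), and with all 18 mice in 1 fit the 1 h call was lost (adjusted p = 0.0846).

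Nfkbiz, which encodes IkappaBzeta, a nuclear IkappaB protein that works as a coactivator for genes such as Il6 and Lcn2, had the largest rise of the set at 1 h. Sham mice had 2.56, 2.65 and 2.74 FPKM and 10 min mice 2.89, 1.36 and 2.28, against 15.3, 13.3 and 14.6 (1 h), 21.9, 10.6 and 10.3 (6 h), 6.58, 8.62 and 20.6 (24 h) and 13.6, 15.8 and 14.8 (72 h). All mice from 1 h on lay above all sham mice. The rise was 2.07 at 1 h (SE 0.076, adjusted p = 1.28e-05), 5.43-fold in mean FPKM, 1.98 at 6 h (SE 0.26, adjusted p = 0.00283), 1.67 at 24 h (SE 0.36, adjusted p = 0.0141) and 2.11 at 72 h (SE 0.079, adjusted p = 8.57e-08).

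Tnfaip3, a ubiquitin-editing enzyme that switches off signalling upstream of the IkappaB kinases, rose less than Nfkbiz from 1 h on. Its mean at 72 h was 2.55 times that of sham, which the pseudocount of 1 renders as 0.95. Its values were 1.56, 1.35 and 1.72 FPKM in sham mice, 1.89, 1.26 and 2.51 (10 min), 2.72, 2.85 and 2.82 (1 h), 7.16, 2.32 and 2.88 (6 h), 2.04, 1.75 and 10.2 (24 h) and 3.51, 4.49 and 3.80 (72 h). All mice from 1 h onward exceeded all sham mice, though mouse 2 at 24 h had 1.75 FPKM against 1.72 in the highest sham mouse. The test was passed at 1 h (0.58, SE 0.081, adjusted p = 0.0233) and 72 h (0.95, SE 0.10, adjusted p = 3.83e-05), and not at 6 h (0.89, SE 0.31, adjusted p = 0.0672) or 24 h (0.84, SE 0.50, adjusted p = 0.217). The 1 h call was lost in 7 of 14 alternatives, among them leaving out sham mouse 1 or 2 or 1 h mouse 1 or 2 (adjusted p = 0.0718 to 0.107).

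Bcl3, a nuclear IkappaB protein that binds homodimers of the Nfkb1 and Nfkb2 products, did not pass the test in the first hour and had the largest rise of the set at 6 h. It had 0.987, 1.52 and 1.55 FPKM in sham mice, 1.65, 1.66 and 1.496 (10 min) and 1.15, 0.863 and 1.63 (1 h), then 13.4, 9.62 and 8.90 (6 h), 4.17, 4.54 and 12.8 (24 h) and 10.1, 11.1 and 11.6 (72 h). The 10 min and 1 h groups overlapped sham (0.16 and -0.09, adjusted p = 0.571 and 0.837). The rise was 2.30 at 6 h (SE 0.17, adjusted p = 0.000473), 1.65 at 24 h (SE 0.37, adjusted p = 0.0158) and 2.35 at 72 h (SE 0.11, adjusted p = 3.25e-07), 8.06-fold in mean FPKM at the last time.

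Nfkbie, which encodes IkappaBepsilon, a slower relative of IkappaBalpha, was the lowest member in sham hearts and had the largest ratio of means. The sham mice had 0.585, 0.347 and 0.506 FPKM, those at 10 min 0.544, 0.733 and 0.898, those at 1 h 0.417, 0.370 and 0.287, those at 6 h 1.35, 0.809 and 0.788, those at 24 h 0.966, 1.63 and 3.46 and those at 72 h 4.16, 4.89 and 3.91. The 6 h, 24 h and 72 h mice were all above sham, and the 72 h mice were above all others. The mean at 72 h was 9.005 times that of sham, which the pseudocount of 1 renders as 1.84 on the log2 scale (SE 0.10, adjusted p = 7.97e-07), or 2.95 with a pseudocount of 0.1. At 24 h the rise was 0.95 (SE 0.28, adjusted p = 0.0364, lost in 6 of 14 alternatives), and at 6 h 0.41 had an adjusted p of 0.0513 (SE 0.13).

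Steps between neighbouring times were tested in the same way. From 10 min to 1 h 1 member rose, Nfkbiz by 2.30 (adjusted p = 0.00106), against 0.391% of all genes rising and 0.211% falling. Nfkb2, Relb and Nfkbie had an unadjusted p under 0.05 in the other direction over that step (-0.40, -0.62 and -0.34, adjusted p = 0.198, 0.273 and 0.203). From 1 h to 6 h 5 rose, against 9.32% rising and 11.2% falling. They were Bcl3 (2.39, adjusted p = 0.000777), Relb (1.007, adjusted p = 0.0158), Nfkb2 (0.77, adjusted p = 0.00645), Rela (0.55, adjusted p = 0.0258) and Nfkbie (0.53, adjusted p = 0.0256), while Nfkbia and Nfkbiz, already raised at 1 h, had differences of -0.12 and -0.09 with overlapping groups. Without 1 h mouse 1 or 1 h mouse 2, 2 of these 5 passed, Nfkb2 and Bcl3. Without 6 h mouse 1, Nfkbia and Nfkbiz passed as lower over that step (-0.42 and -0.43, adjusted p = 0.0238 and 0.0355, limma). Rela then no longer passed (0.45, adjusted p = 0.0561, limma). From 6 h to 24 h no member passed, against 12.5% of genes rising and 1.94% falling. By limma none had an unadjusted p under 0.05 either. With all 18 mice in 1 limma fit 2 members passed, Rel as lower (-0.70, adjusted p = 0.0456) and Nfkbie as higher (0.53, adjusted p = 0.0490). In that fit 4848 of 13333 genes rose and 1002 fell over this step. From 24 h to 72 h Nfkb1 (0.45, adjusted p = 0.0265) and Nfkbie (0.90, adjusted p = 0.0346) rose, against 29.7% rising and 13.5% falling. Both calls were lost with median-of-ratios scaling (adjusted p = 0.0723 and 0.0507, limma) and without 24 h mouse 1, 24 h mouse 2 or any 1 of the 72 h mice, and that of Nfkbie was lost with quantile normalization too (adjusted p = 0.0863). Nfkbia had a difference of -0.73 over that step, with all 72 h mice below all 24 h mice and an adjusted p of 0.0618, and it passed as lower under both other scalings (-0.88 and -0.89, adjusted p = 0.0285 and 0.0260).

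The 6 h and 24 h groups held 1 mouse each that stood apart, and the members followed it. At 6 h mouse 1 had the highest FPKM of the 3 in 10 of 10 members, where it was highest for 32.5% of 13308 genes, and at 24 h mouse 3 was highest in 10 of 10 members and for 44.6% of 13321 genes. The same mice had the highest neutrophil sums of their groups, 1002 FPKM against 117.3 and 377.2 at 6 h and 968.0 against 43.0 and 210.5 at 24 h, and the highest leukocyte sums, 115.6 against 35.9 and 61.1 and 326.5 against 134.7 and 137.3. The gap was widest for Tnfaip3, with 5.829-fold between the highest and lowest 24 h mouse, and narrowest for Nfkb1, with 1.372-fold. The part of these cells in the members' spread was not tested.

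Without 6 h mouse 1, 7 members were higher than sham at 6 h, the 6 above and Tnfaip3 (0.50, adjusted p = 0.0269), with Bcl3 at 2.13 and Nfkbiz at 1.65. Without 24 h mouse 3, 6 were higher at 24 h, the 5 above and Nfkbia (0.42, adjusted p = 0.0135), with Nfkbiz at 1.23, Bcl3 at 1.19, Relb at 0.83, Nfkb2 at 0.80 and Nfkbie at 0.62. The step from 24 h to 72 h depended on that mouse most: without it 9 members passed in place of 2, with Nfkbia lower by -0.39 (adjusted p = 0.0137) and 8 higher, up to Bcl3 at 1.15 (adjusted p = 0.000111), all but Rela. The step from 6 h to 24 h then had 1 member past the threshold, Bcl3 as lower by -1.10 (adjusted p = 0.0253). Leaving out sham mouse 1 or sham mouse 2 took the 24 h count from 5 to 1 and 0. The share of all genes that passed without a given mouse was not counted. These counts therefore do not show whether the members changed more than other genes.

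Levels were also set against Rela within each mouse, as the difference of log2(FPKM + 1) values, in which the pseudocount pulls the ratios of low genes toward 0. The log2 ratio of Nfkbia to Rela was 0.68, 0.91 and 0.61 in sham mice, 2.010, 2.02 and 1.73 (1 h) and 0.08, 0.20 and 0.18 (72 h). The 72 h mice lay below all sham mice and the 1 h mice above them. The ratio of Nfkbiz to Rela went from -2.05 ± 0.05 in sham mice to 0.01 ± 0.22 at 1 h and -0.56 ± 0.10 at 72 h. Nfkb2 overtook Rela, from -0.20 ± 0.02 in sham mice to 0.34 ± 0.15 at 24 h and 0.62 ± 0.10 at 72 h, and Relb gained on it from -1.15 ± 0.14 to -0.32 ± 0.07. Bcl3 moved from -2.70 ± 0.21 to -0.96 ± 0.12 at 6 h and -0.97 ± 0.13 at 72 h, and Nfkbie from -3.36 ± 0.10 to -2.13 ± 0.09 at 72 h. Without the pseudocount Nfkbie went from -4.92 ± 0.35 to -2.37 ± 0.11, and Bcl3 from -3.42 ± 0.37 to -1.03 ± 0.14 at 72 h. Nfkb1 against Rela was 1.31 ± 0.09 in sham mice and 1.41 ± 0.07 at 72 h, with a low of 0.93 ± 0.21 at 6 h. The ratios are given as a description and were not tested, and they show unequal change and not which gene of a pair moved.

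**Figure D4:**
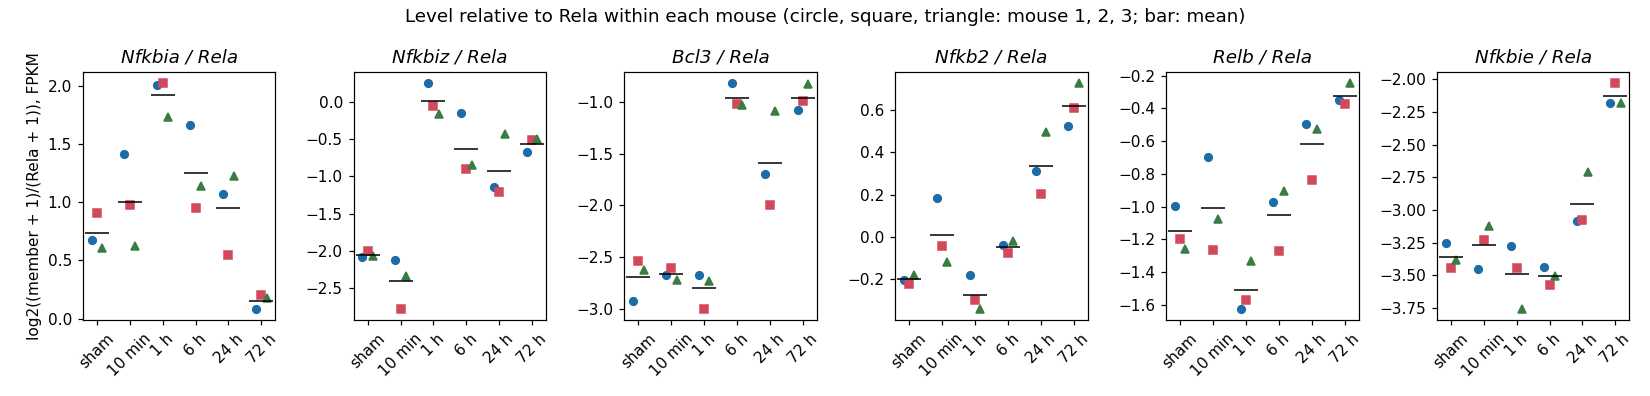
Log2 ratio of 6 members to Rela within each mouse, from FPKM + 1, by group, with the mean as a bar. The ratio of Nfkbia to Rela lies above all sham mice at 1 h and below them at 72 h (0.08 to 0.20), whereas those of Nfkb2, Relb and Nfkbie are highest at 72 h.

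The other genes of the pathway were taken from 5 lists written by hand, and their counts stand beside the 11.6%, 26.2% and 53.1% of all genes that were higher at 6 h, 24 h and 72 h. At 10 min no list gene passed, and at an unadjusted p under 0.05 (limma) 1 receptor, 0 adaptors, 1 kinase, 1 other inhibitor and 4 target genes were higher and 2 target genes lower. Of 14 receptors that feed it, 13 were tested, with 0, 1, 7, 7 and 12 higher than sham at the successive times and none lower. Cd14, a co-receptor of Toll-like receptor 4, was the receptor that rose at 1 h (0.77, SE 0.089, adjusted p = 0.00775). The largest rises at 72 h were those of Tnfrsf1b (3.06), Cd14 (2.78), Tnfrsf11a (2.58), Tlr2 (2.27), Il1r1 (1.91) and Tlr4 (1.84). The median of the list at 72 h was 1.63, beside 0.29 over all genes. Tnfrsf1b, the TNF receptor found mainly on leukocytes and endothelium, had 5.93, 5.53 and 5.75 FPKM in sham mice and 51.5, 56.3 and 58.5 (72 h).

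Of 24 adaptors and ubiquitin ligases, 23 were tested, with 0, 0, 6, 10 and 19 higher and 0, 0, 1, 1 and 1 lower. Card9 (1.98), Myd88 (1.74), Ripk1 (1.73), Tradd (1.68), Irak4 (1.34) and Birc3 (1.21) had the largest changes at 72 h. The lower genes were Rbck1 at 6 h (-0.36, adjusted p = 0.0402), which was higher at 72 h, and Irak1 at 24 h and 72 h (-0.41 and -0.37, adjusted p = 0.0435 and 0.0190). Myd88, the adaptor of the Toll-like and interleukin-1 receptors, had 4.66, 4.43 and 5.004 FPKM in sham mice and 16.04, 12.6 and 13.8 (6 h). Among the 12 kinase genes 0, 0, 1, 3 and 8 were higher and 0, 0, 1, 0 and 0 lower, so that the 1 of 12 at 6 h and the 3 of 12 at 24 h were near the share of all genes. The rise at 6 h was that of Map3k8 (0.74, adjusted p = 0.0169), and Ikbkg, the regulatory subunit of the IkappaB kinase, was lower at that time (-0.53, adjusted p = 0.0122). At 72 h Ikbke (1.67), Map3k14 (1.17), Ikbkb (0.89), Tbk1 (0.80), Tab2 (0.58) and Map3k8 (0.54) led, Map3k14 being the kinase that starts the non-canonical route. The median at 72 h was 0.73 for the adaptors and 0.50 for the kinases.

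Other inhibitors and IkappaB proteins outside the 10 members numbered 19, of which 17 were tested, with 0, 0, 5, 5 and 14 higher and 0, 0, 1, 0 and 0 lower, and a median of 0.60 at 72 h. The 5 of 17 at 24 h were near the share of all genes that were higher then. At 1 h 0 were higher and 2 lower at an unadjusted p under 0.05. Nfkbid (another nuclear IkappaB protein), Tnip2, Otulin, Zc3h12a and Nfkbib rose at 6 h, by 0.82, 0.91, 0.45, 0.88 and 0.32. Pdlim2 was lower at 6 h (-0.45, adjusted p = 0.0279) and had the largest rise at 72 h (1.85), ahead of Usp18 (1.40), Nfkbid (1.37), Nlrc5 (1.304), Tnip2 (0.93) and Itch (0.86).

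Target genes were a list of 36, of which 34 were tested from 6 h on, 33 at 1 h and 32 at 10 min. At the successive times 0, 7, 20, 18 and 27 were higher and 0, 0, 1, 2 and 1 lower, with medians of 0.09, 0.20, 1.28, 1.19 and 1.33. The 7 that rose at 1 h together with Nfkbia, Nfkbiz and Tnfaip3 were Cxcl1 (3.27), Cxcl2 (2.49), Ptgs2 (2.08), Ccl2 (1.34), Gadd45b (1.21), Ptx3 (0.80) and Il6 (0.66), among them the neutrophil chemokines. Cxcl1 had 1.14, 1.04 and 1.37 FPKM in sham mice, 19.3, 19.4 and 21.3 (1 h), 89.9, 23.5 and 53.7 (6 h) and 3.55, 7.04 and 5.02 (72 h). Ccl2 (4.60), Saa3 (3.77), Cxcl10 (3.36), Ptx3 (2.93), Il1b (2.92) and Cxcl5 (2.82) led at 72 h on this scale. The pseudocount of 1 shrinks the change of genes near 0 in sham mice and so shapes both orders. Il6 had a mean of 0.0057 FPKM in sham mice and 0.588 at 1 h. At 72 h the ratio of means was 987 for Saa3, 252 for Il6 and 89.6 for Cxcl5, against 33.6 for Ccl2. The lower genes were Nos2 at 6 h (-0.66, adjusted p = 0.0109), Sod2 and Cd83 at 24 h (-0.50 and -0.55, adjusted p = 0.0184 and 0.0282) and Sod2 at 72 h (-1.37, adjusted p = 5.68e-06). Birc3 and Tnip1 stand in 2 of the lists each, and all 5 lists had larger medians than all genes at 72 h, when 53.1% of all genes were higher.

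The genes most like each member were found by Pearson's r of log2(FPKM + 1) over the 18 mice, which share their group and library, and are given as a description. Nfkbia was closest to Sik1 (r = 0.92), Csrnp1 (0.91) and Apold1 (0.89), and Nfkbiz to Ier5 (0.93), Ccnl1 (0.93) and Atf3 (0.92). Tnfaip3 was closest to Mmp25 (0.91), Kdm7a (0.90) and Ccl3 (0.90), and Rel to Med13l (0.91), Jmjd1c (0.89) and Wac (0.89). Bcl3 had Tnfrsf1a (0.99), Il4ra (0.99) and Myd88 (0.98) at its side, and the first and last of these are genes of the receptor and adaptor lists. Nfkbie was nearest to Pfkfb4 (0.99), Mta2 (0.99) and Tfe3 (0.99), Nfkb1 to Cd300ld (0.97), Cmtm6 (0.97) and Rhoh (0.97), and Rela to Ppan (0.95) and Ecscr (0.95). Relb had Nfkb2 itself as its nearest gene (0.97), then Etv6 (0.96) and Zfp954 (0.95), and Nfkb2 had Crlf2 (0.98), Ythdf2 (0.98) and Atp1b3 (0.98). Between members r ran down to -0.21 for Nfkbia with Nfkbie, and Nfkbia had an r of -0.11 with Nfkb1, -0.02 with Nfkb2 and 0.57 with Nfkbiz.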

How the data were processed

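Polyadenylated RNA of the left ventricle of 18 mice, 3 per group, was sequenced, from infarcted tissue in the AMI groups. Reads were trimmed by the authors with cutadapt 1.18, mapped with HISAT2 2.1.0 to mm10 and quantified with StringTie 1.3.4d, and the deposited values are FPKM per gene symbol and mouse; the annotation is not given in the sources used here. Groups came from the sample titles. The table's headers for the 3 mice of 1 h and for mouse 2 of 6 h differ from the titles by a single letter and were matched to those titles, the closest spellings left. FPKM were used as deposited (sums of 542418 to 600467 per mouse). The filter kept 13333 of 24419 symbols, those that reached an FPKM of 1 in 1 mouse or more, and a comparison left out genes with 1 value in all its mice. Log2(FPKM + 1) values were tested two-sided with limma 3.58.1 (variance trend) under R 4.3.3, each comparison on its own 6 mice, and p-values were adjusted by Benjamini-Hochberg across every gene in the comparison, with a threshold of 0.05. No read counts were used, so precision rests on the spread between mice. Only the limma fit was tried on simulated data, with the spread of the sham mice and changes planted in genes of higher level. That trial does not cover the wider spread of most members at 6 h and 24 h or the members of low level.

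The 10 members and the gene lists were chosen with earlier results of these data known. The text names all members, the 3 genes most correlated with each (1 of those for Rela is not reported here), and up to 6 genes per list with the largest change among those that passed at the time with most calls. Single genes named beyond these, such as those past the threshold in a list at 1 h or 6 h and the list genes that were lower, were chosen after their values were seen. Alternatives were 0.1 as the pseudocount, all genes unfiltered, a minimum of 1 on the mean FPKM, median-of-ratios and quantile scaling, all 18 mice in 1 fit, the replicate number as a block, no variance trend, a ratio over 2 as an added threshold, and each mouse left out in turn. Promoters were searched with Python 3.11.15 on both strands for the kappaB consensus of 10 bases.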

Additional observations from a re-analysis of the deposited data

Results flagged for a closer look

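Steps between neighbouring times in which a member changed, by the test of the difference between the AMI groups itself (limma, adjusted over all genes tested), numbered 8. Their log2 differences (later minus earlier) were 2.30 for Nfkbiz from 10 min to 1 h, 0.77 for Nfkb2, 0.55 for Rela, 1.007 for Relb, 0.53 for Nfkbie and 2.39 for Bcl3 from 1 h to 6 h, and 0.45 for Nfkb1 and 0.90 for Nfkbie from 24 h to 72 h. All 3 mice of the later time lay above all 3 of the earlier time in each of the 8, which the test had picked on the same values. The share of all genes without overlap was not counted. Of all genes tested, 0.391% rose from 10 min to 1 h, 9.32% from 1 h to 6 h and 29.7% from 24 h to 72 h. The summed leukocyte markers overlapped between 10 min (23.2 to 30.3 FPKM) and 1 h (24.8 to 30.5), the step of Nfkbiz. Neutrophil sums overlapped over that step too (5.49 to 24.0 and 16.6 to 30.1), and both groups lay above sham (2.32 to 5.004). Of 6 neutrophil markers tested, S100a8 and S100a9 were higher than sham at 1 h (limma), against 0.669% of all genes. None of the 6 passed from 10 min to 1 h. The leukocyte sums were higher at 6 h (35.9 to 115.6) and at 72 h (395.6 to 427.8) than at the time before. They also rose from 6 h to 24 h (134.7 to 326.5), where no member passed. The part of leukocytes in the steps was not tested.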

How the results depend on the processing

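Of the values of single members under an alternative, 1169 stayed on their side of the threshold (33 of them with the other sign, past it in neither setting), 50 no longer passed, 39 newly passed and 2 passed with the opposite sign, both for Nfkbia at 72 h against sham (-0.27 under median-of-ratios factors, -0.27 under quantile normalization, against 0.04). The count of members called at 72 h was 9 in all settings but median-of-ratios scaling (10, Nfkbia as lower) and the added ratio over 2 (7); the 9 under quantile normalization were 8 higher and Nfkbia lower. Other counts moved by over 1.5 times: with all 18 mice in 1 fit to 1 from 3 at 1 h, 2 from 0 between 6 h and 24 h and 4 from 2 between 24 h and 72 h; with a ratio over 2 to 3 from 6 at 6 h, 3 from 5 between 1 h and 6 h and 1 from 2 between 24 h and 72 h; and between 24 h and 72 h to 1 without a filter (Nfkb1) and 1 with median-of-ratios scaling, which was Nfkbia as lower, Nfkb1 and Nfkbie being lost. In the fit of all 18 mice, 51 of 13333 genes rose and 2 fell at 1 h. Between 6 h and 24 h 4848 rose and 1002 fell, and between 24 h and 72 h 4790 and 2443. Without a filter, 4266 of 18788 genes rose and 1683 fell between 24 h and 72 h. Leaving out 1 mouse gave 0 to 0 members at 10 min, 2 to 3 at 1 h, 4 to 8 at 6 h, 0 to 6 at 24 h, 9 to 9 at 72 h, 1 to 2 between 10 min and 1 h, 2 to 6 between 1 h and 6 h, 0 to 1 between 6 h and 24 h and 0 to 9 between 24 h and 72 h. The last count was 9 without 24 h mouse 3, 1 without 24 h mouse 2 and 0 without 24 h mouse 1 or any 72 h mouse. Shares of all genes were not counted with a mouse left out or with the added ratio over 2. Without 10 min mouse 1, Nfkbia also passed between 10 min and 1 h (1.02, adjusted p = 0.0111). Between 1 h and 6 h, the count without 6 h mouse 1 included Nfkbia and Nfkbiz as lower. The causes were not tested.

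Replicate numbers did not pair the mice: deviations from the group means correlated between -0.33 and 0.41 in 45 same-numbered pairs (median -0.02) and between -0.49 and 0.56 in 90 others. With the replicate block the counts were 0, 2, 8, 5 and 9 against sham and 1, 4, 0 and 2 for the steps. Rel and Nfkbie were gained at 6 h (adjusted p = 0.0395 and 0.0454, limma). Tnfaip3 at 1 h (0.0959) and Rela between 1 h and 6 h (0.0666) were lost. Over all genes, 18, 78, 1262, 2971 and 7024 then rose against sham and 11, 7, 1577, 1211 and 3191 fell. For the steps 47, 933, 1 and 3803 rose and 12, 821, 0 and 1702 fell. Between 6 h and 24 h that was 1 and 0, from 1664 and 258. Groups of 3 mice, an unknown read depth and FPKM near 1 for Nfkbie, Bcl3, Tnfaip3 and Rel in sham hearts limit what could be detected.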
